A study of Mus musculus with 16 samples.

Results

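The 8 genes described are those of cholesterol synthesis and its control by the transcription factor SREBP2, chosen by their gene symbols: Srebf2, Hmgcs1, Sqle, Insig1, Idi1, Fdps, Fdft1 and Cyp51. They are 8 of 40481 genes listed in the counts, and all 8 were among the 14949 genes tested. RNA came from brain tissue of 16 male C57BL mice (C57BL/6J in the study's text) bought at 18 months of age. The adropin group (n = 8) received the synthetic peptide adropin(34-76), the presumed secreted part of adropin, by 1 intraperitoneal injection a day at 90 nmol/kg/d. The saline group (n = 8) received the diluent alone, saline with bovine serum albumin. Injections ran for 4 weeks, and all mice were fasted for 6 h before tissue collection. The part of the brain taken is not stated in the sources used here, and each mouse is called by its label, a first and a second number. The comparison asks whether adropin treatment of aged mice altered transcripts of this pathway in brain.

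Brain cholesterol is made within the brain, because lipoproteins do not cross the blood-brain barrier to a useful extent. When sterols in the endoplasmic reticulum are low, SREBP2, the protein made from Srebf2, is carried to the Golgi, cut, and released as an active factor that binds sterol regulatory elements in the promoters of synthesis genes. Insig1 encodes a protein that holds the SREBP2 complex back when sterols are high, and Insig1 is itself a target gene. The other 6 genes encode enzymes. Hmgcs1 makes HMG-CoA, Idi1 interconverts the isoprenoid units, Fdps joins them to farnesyl diphosphate, Fdft1 (squalene synthase) makes squalene, Sqle oxidises squalene, and Cyp51 removes a methyl group from lanosterol.

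Promoter windows from RefSeq on GRCm38.p6, from 250 bases before to 50 after the start site, were matched for 5 of the 8 genes (Srebf2, Hmgcs1, Insig1, Idi1 and Cyp51), and Sqle, Fdps and Fdft1 were not matched. Of the 5 matched windows, 2 held the letters TCACNCCA, the core of a sterol regulatory element (searched on both strands, matches in capitals), and those of Insig1, Idi1 and Cyp51 held no match. SREBP2 acts through such elements, so both windows with a match are shown, with that of Cyp51 as 1 of the 3 without. The windows lie at chr13:119690101-119690400 (plus strand) for Hmgcs1, chr15:82147019-82147318 (plus strand) for Srebf2 and chr5:4104648-4104947 (minus strand) for Cyp51.
Hmgcs1: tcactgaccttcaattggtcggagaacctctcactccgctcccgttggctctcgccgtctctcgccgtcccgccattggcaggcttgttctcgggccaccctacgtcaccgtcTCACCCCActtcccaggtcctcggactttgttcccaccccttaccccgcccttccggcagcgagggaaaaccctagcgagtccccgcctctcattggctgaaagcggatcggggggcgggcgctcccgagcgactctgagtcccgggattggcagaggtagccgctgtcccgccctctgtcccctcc
Srebf2: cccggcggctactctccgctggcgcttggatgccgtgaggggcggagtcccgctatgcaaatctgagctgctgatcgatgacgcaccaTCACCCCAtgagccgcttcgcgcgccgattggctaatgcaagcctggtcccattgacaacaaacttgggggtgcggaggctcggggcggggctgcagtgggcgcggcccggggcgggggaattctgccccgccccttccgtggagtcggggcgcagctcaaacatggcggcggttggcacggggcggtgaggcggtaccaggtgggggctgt
Cyp51: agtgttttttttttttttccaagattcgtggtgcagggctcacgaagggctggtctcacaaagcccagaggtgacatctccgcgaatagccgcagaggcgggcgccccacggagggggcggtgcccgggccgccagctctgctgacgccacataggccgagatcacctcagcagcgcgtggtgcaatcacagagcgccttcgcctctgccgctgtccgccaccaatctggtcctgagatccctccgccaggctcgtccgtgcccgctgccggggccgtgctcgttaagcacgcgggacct
The match read TCACCCCA in both genes and began 137 bases upstream of the start site in Hmgcs1 and 162 bases upstream in Srebf2. TCACNCCA stood in 2 of the 5 matched windows and in 4.36% of the 32851 windows of all genes. CCAAT, the box bound by NF-Y, was present in all 5 matched windows and in 37.4% of all windows. GGGCGG, the GC box bound by SP1, was also present in all 5 and in 35.7% of all windows. Among 57 further pathway genes listed for the comparison, 40 had a window, and 2 of these held TCACNCCA: Msmo1, an enzyme of the late pathway, 177 bases upstream, and Apoe, the main apolipoprotein of brain, 213 bases upstream. A match describes the letters only, and a window without one says nothing of binding.

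Library totals ranged from 35185051 to 70314050 counts in adropin mice and from 35026503 to 47245785 in saline mice, and the lowest count of any of the 8 genes in any mouse was 179, for Idi1. Choroid plexus markers stood apart in 1 library, saline mouse 8_3: their summed level was between 12.6 and 2465 CPM (counts scaled to a common library total) over the saline mice and between 11.3 and 73.6 over the adropin mice. All 11 oligodendrocyte and myelin markers were detected, with a summed level of 3099 to 8560 CPM in adropin mice and 2947 to 8467 in saline mice, and all 11 had an estimate below 0 in adropin mice (median log2 fold change -0.16), with none past an edgeR p of 0.05. Without saline mouse 8_3, 1 of the 11 was above 0 and the others below (median -0.10). All 5 choroid plexus markers tested were lower in adropin mice past that p (median -1.31), and 2 of 5 without saline mouse 8_3 (median -0.67). Of the cerebellum markers 1 of 2 was lower past that p, and 0 of 2 without that mouse, and 1 of 5 microglia markers was higher with or without it. All 7 neuronal markers were detected and had an estimate above 0 (median 0.05), with none past that p, and 6 of 7 were above 0 without that mouse (median 0.06).

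Levels are given as CPM after TMM normalization, and genes are set beside each other only per kilobase of exon. In saline mice Hmgcs1 stood at 44.2 ± 4.13 CPM per kb (SD, n = 8) and Srebf2 at 41.0 ± 5.49, which did not differ beyond their spread. Fdft1 followed at 25.4 ± 1.27 and Insig1 at 21.2 ± 2.83. Cyp51 at 13.1 ± 1.02 and Fdps at 13.1 ± 1.76 were level with each other, then came Sqle at 10.5 ± 1.42. Idi1 was the lowest of the 8 at 2.37 ± 0.431. In adropin mice the per-kb order was the same except that Fdps came before Cyp51 (12.6 ± 1.03). On GRCm38 the genes lie on 5 chromosomes: Srebf2 at chr15:82147181-82205379 and Sqle at chr15:59315077-59331192, Hmgcs1 at chr13:119690379-119708260 and Idi1 at chr13:8885501-8892451, Insig1 at chr5:28071363-28078662 and Cyp51 at chr5:4081145-4104746, Fdps at chr3:89093588-89101959, and Fdft1 at chr14:63145150-63179578. Counts covered all exons of a gene. The annotation places 774 exonic bases of Fdft1 under Ctsb and 166 of Cyp51 under Akap9, on the opposite strand. Whether counting used strand is not given in the sources used here, so reads in those stretches are uncertain. The same annotation gives Fdps 1124 exonic bases in common with Gm43738 on its own strand, Hmgcs1 557 with Gm48342 and Idi1 323 with Gm48574 on the opposite strand. None of these 3 genes is listed in the counts, so reads from them cannot be told apart from those of Fdps, and, without strand, of Hmgcs1 and Idi1.

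Transcripts of all 8 genes overlapped between adropin and saline mice, and the largest of the 8 estimated changes was 0.11 on the log2 scale, for Srebf2. None of the 8 genes reached an unadjusted p of 0.05 in edgeR's quasi-likelihood test, beside a background of 3.99% of all genes tested (1.86% higher in adropin and 2.13% lower). With a fold change above 1.5 added to the p, 0.421% of all genes passed and none of the 8. No gene of the 14949 had a Benjamini-Hochberg adjusted p below 0.05 in edgeR (0%), 596 had an unadjusted p below 0.05, and with an adjusted p below 0.05 DESeq2 gave 5 and limma-voom 0. The 95% intervals of the 8 fold changes together reached from 0.862-fold to 1.23-fold. In bulk tissue, fewer cells of a type and less RNA per cell cannot be told apart.

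Srebf2, the regulator, had the largest estimate with all 16 mice. Its level ran from 244 over a median of 335 to 355 CPM in adropin mice and from 227 over a median of 301 to 344 CPM in saline mice. The groups overlapped, and 6 of 8 adropin mice lay above the saline median. The log2 fold change was 0.11 (95% interval -0.08 to 0.30), with an edgeR p of 0.230, an adjusted p of 0.874 (Benjamini-Hochberg) and an exact permutation p of 0.254. Without saline mouse 5_4 the estimate was 0.06, below that of Hmgcs1 (0.09), and without adropin mouse 4_3 it was 0.16. Insig1, which retains SREBP2, ran from 56.7 over 62.7 to 81.6 CPM in adropin mice and from 50.2 over 68.0 to 74.2 CPM in saline mice. Only 2 of 8 adropin mice lay above the saline median, yet the highest mouse of all, 7_4, was an adropin mouse. The log2 fold change of Insig1 was -0.01 (95% interval -0.20 to 0.17, edgeR p = 0.891, exact permutation p = 0.926).

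Hmgcs1, the earliest acting of the 6 enzymes, had an estimate near that of Srebf2. It ran from 195 over a median of 216 to 239 CPM in adropin mice and from 177 over 199 to 231 CPM in saline mice, and 7 of 8 adropin mice lay above the saline median. The log2 fold change was 0.10 (95% interval -0.03 to 0.23), with an edgeR p of 0.124, an adjusted p of 0.874 by Benjamini-Hochberg and an exact permutation p of 0.109. Without saline mouse 6_1, the highest saline mouse, it was 0.13 and passed an unadjusted edgeR p of 0.05. Under a block on the first number it was 0.02, an estimate that rests on the numbers held by both groups (2, 5 and 7).

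The other 5 enzymes had log2 fold changes between -0.05 and 0.04. Idi1 ran from 6.68 over 8.23 to 10.6 CPM in adropin mice and from 5.18 over 8.40 to 9.78 CPM in saline mice, where mouse 5_4 was far below the rest, and its log2 fold change was 0.04 (95% interval -0.21 to 0.29, edgeR p = 0.748, exact permutation p = 0.735). Fdps ran from 49.1 over 51.5 to 68.5 CPM in adropin mice and from 46.7 over 53.4 to 69.9 CPM in saline mice. Fdps had 3 high mice, adropin mice 3_3 and 4_3 and saline mouse 5_4, and its log2 fold change was -0.01 (95% interval -0.20 to 0.18, edgeR p = 0.929, exact permutation p = 0.931). Fdft1 varied least, from 97.6 over 107 to 116 CPM in adropin mice and from 100.5 over 108 to 115 CPM in saline mice, a fold of 1.18 from the lowest to the highest mouse. Its log2 fold change was 0.01 (95% interval -0.09 to 0.11, edgeR p = 0.866, exact permutation p = 0.839). Sqle ran from 52.5 over 58.6 to 67.0 CPM in adropin mice and from 48.5 over 58.3 to 71.1 CPM in saline mice, so all adropin values lay inside the saline range (log2 fold change 0.04, 95% interval -0.12 to 0.21, edgeR p = 0.608, exact permutation p = 0.564). Cyp51 ran from 49.7 over 56.0 to 63.5 CPM in adropin mice and from 52.8 over 56.7 to 64.9 CPM in saline mice. Its log2 fold change was -0.05 (95% interval -0.18 to 0.07, edgeR p = 0.375, exact permutation p = 0.345).

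**Figure D1:**
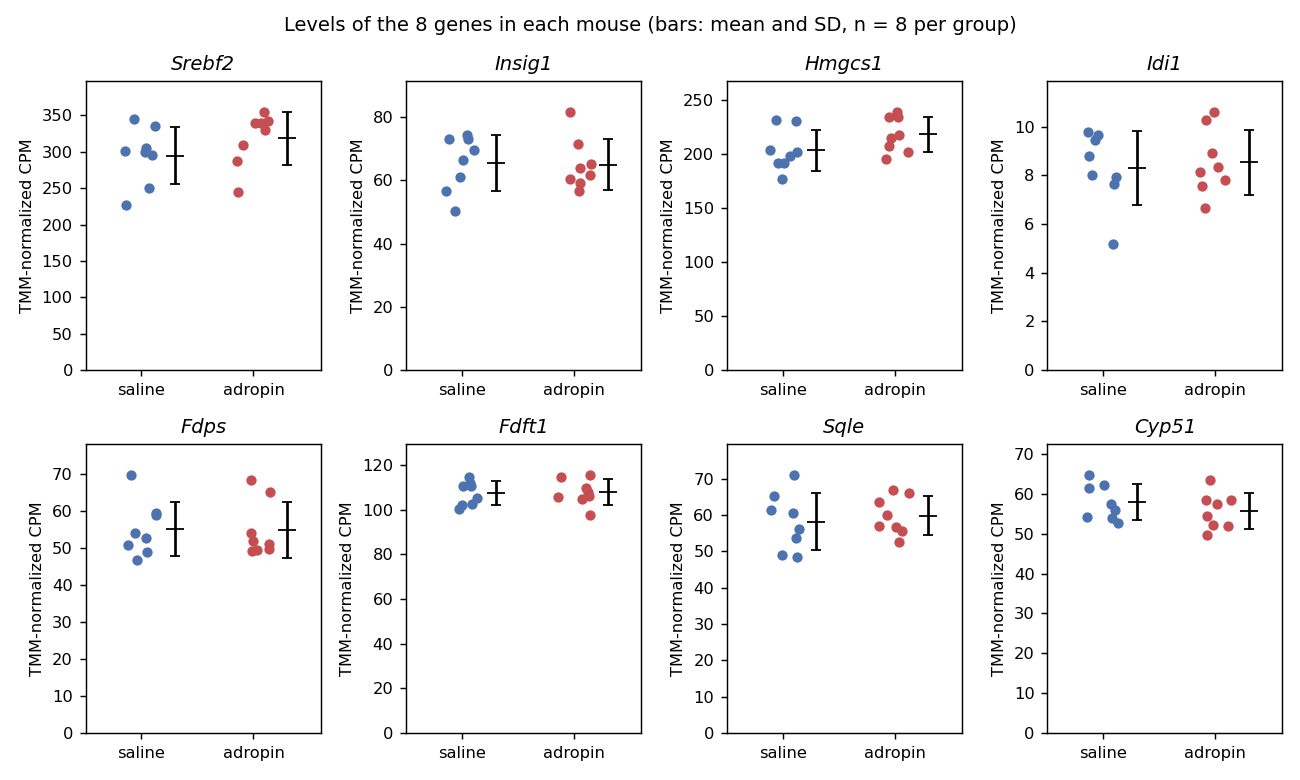
TMM-normalized CPM (y axis, from 0) of each of the 8 genes in each saline and adropin mouse (x axis, by group, 1 point a mouse), with bars for the mean and SD of 8 mice. The groups overlap for every gene, and in Idi1 a single saline mouse sits at 5.18.

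Of the 8 genes, 5 had an estimate above 0 and 3 below. Their median log2 fold change was 0.02, beside -0.00 over all genes tested. The within-group SD on the log2 scale had a median of 0.175 over the 8 genes and 0.196 over all genes tested. Without the 4 mice lowest on the leading axis of variation described below (2 adropin and 2 saline, an alternative chosen after seeing the data), none of the 8 passed an edgeR p of 0.05, while 10.1% of all genes did. Srebf2 was then at 0.09 (95% interval -0.01 to 0.20) and Hmgcs1 at 0.07 (95% interval -0.08 to 0.22).

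**Figure D2:**
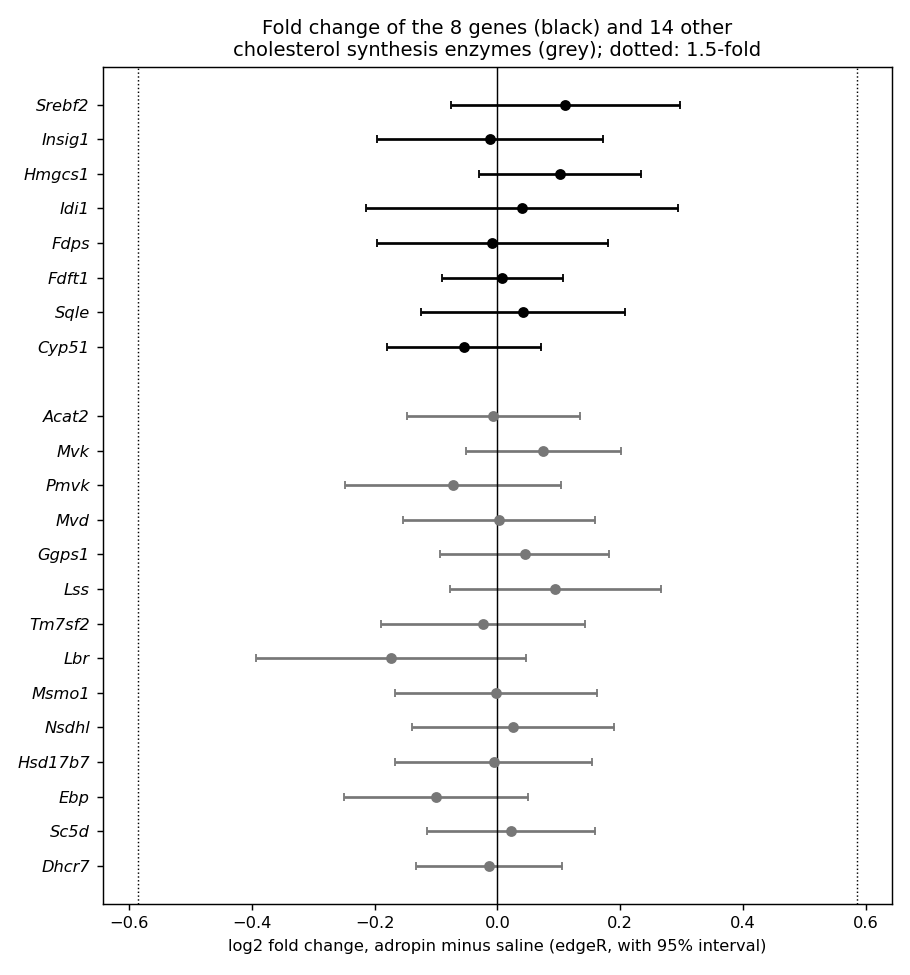
Log2 fold change of adropin over saline from edgeR (x axis) for the 8 genes in black and 14 of the 16 other cholesterol synthesis enzymes tested in grey (the other two are not reported here), 1 row a gene, with bars for the 95% interval and dotted lines at a fold of 1.5. Every interval drawn spans 0, and none of the 22 estimates drawn reaches the dotted lines.

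Other genes of the pathway were examined in 5 lists, 57 genes in all, of which 56 were tested. Of the other 16 cholesterol synthesis enzymes, 8 had an estimate above 0, 8 below, and none an edgeR p below 0.05. Lbr, a sterol reductase that also anchors chromatin to the nuclear envelope, was at -0.17 (edgeR p = 0.116, exact permutation p = 0.136), and passed without saline mouse 5_4.

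Of 10 genes of SREBP processing and sterol sensing, 9 had an estimate above 0 and none passed. The smallest p was that of Mbtps1, the site-1 protease that makes the first cut of SREBP2, at a log2 fold change of 0.09 (edgeR p = 0.136, exact permutation p = 0.109), and it passed without saline mouse 5_3. All 10 listed genes of fatty acid synthesis, many of them targets of the related factor SREBP1, had estimates above 0, from 0.006 to 0.15 on the log2 scale, and none passed. Acaca (0.13, edgeR p = 0.121, exact permutation p = 0.132) and Fasn (0.15, edgeR p = 0.154, exact permutation p = 0.175) passed without saline mouse 5_3. Of 12 genes of sterol export and turnover under the LXR receptors, 11 were tested, 7 had an estimate above 0, and none passed, the smallest edgeR p being 0.294 for Cyp27a1 (exact permutation p = 0.406). Across all 56 listed genes tested, 39 had an estimate above 0 and 17 below, beside 7362 above and 7587 below of all genes. Genes of a list are not independent between mice, so these counts of signs are a description only. With an edgeR p below 0.05 there was 1 of the 56, or 1.79%, beside the background of 3.99%. Of the 9 genes of sterol uptake and transport, 5 had an estimate above 0 and 4 below, and Lrp1, a large receptor for apolipoprotein E, was at 0.13 (edgeR p = 0.0885, exact permutation p = 0.0925) and passed without adropin mouse 4_3 or saline mouse 5_3.

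Between mice of the same group, several enzymes of the pathway varied together. Correlations were calculated over the 16 mice on log2 TMM-normalized CPM with group means subtracted, for the 28 pairs of the 8 genes, each with 100000 permutations within groups and Benjamini-Hochberg adjustment over the 28 pairs. The median Pearson r of the 28 pairs was 0.39, beside 0.00 over all 111728826 pairs of genes tested, whose quartiles were -0.32 and 0.33. An r above 0.514, the size that a two-sided p of 0.05 needs here, was reached by 9 of the 28 pairs, or 32.1%, beside 13.4% of all pairs. An r below the negative of that value was found in 1 pair, or 3.57%, beside 12.3% of all pairs. In all, 24 of the 28 were positive, and 27 had the same sign in adropin and in saline mice taken alone. An adjusted p below 0.05 was reached by 8 pairs with Pearson's r, by 7 with Spearman's rho, and by 6 with both.

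The closest pair was Hmgcs1 and Sqle. Saline mice 6_1 and 7_1 were high in both genes (231 and 231 CPM of Hmgcs1, 71.1 and 65.2 CPM of Sqle), and saline mouse 6_2 was low in both (177 and 49.0 CPM). Pearson's r was 0.876 (permutation p = 4.0e-05, adjusted p = 0.00112) and Spearman's rho was 0.888 (permutation p = 8.0e-05, adjusted p = 0.00224). The r was 0.810 in adropin mice, 0.918 in saline mice, and 0.797 without the 2 mice farthest from the median of Hmgcs1, with an adjusted permutation p of 0.0291. Hmgcs1 and Cyp51 followed, with r = 0.833 (permutation p = 0.00013, adjusted p = 0.00182) and rho = 0.853 (permutation p = 0.00016, adjusted p = 0.00224). Their r was 0.894 in adropin mice, 0.795 in saline mice, and 0.765 without the same 2 mice (adjusted permutation p = 0.0441). These were the pairs that kept an adjusted p below 0.05 without the 2 farthest mice. Hmgcs1 and Fdft1 had an r of 0.498 in all mice (adjusted permutation p = 0.151). Without the 2 mice farthest on Hmgcs1 their r was 0.733 (adjusted permutation p = 0.0441).

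Sqle and Cyp51 themselves had an r of 0.516 (permutation p = 0.0467, adjusted p = 0.131, rho 0.574 with an adjusted p of 0.0912). Idi1 had an r of 0.571 with Sqle (permutation p = 0.0294, adjusted p = 0.0915, rho 0.650 with an adjusted p of 0.0376). Its r was 0.687 with Cyp51 (permutation p = 0.00286, rho 0.776 with an adjusted p of 0.00693) and 0.649 with Hmgcs1 (permutation p = 0.0105, adjusted p = 0.0422, rho 0.785 with an adjusted p of 0.00681). Insig1 had an r of 0.670 with Idi1 (permutation p = 0.00766, adjusted p = 0.0357, rho 0.638 with an adjusted p of 0.0376) and of 0.630 with Cyp51 (permutation p = 0.0122, adjusted p = 0.0426, rho 0.706 with an adjusted p of 0.0216). Without the 2 farthest mice these 4 pairs had r of 0.672, 0.567, 0.611 and 0.654, with adjusted permutation p-values from 0.0563 to 0.0792. Averaged over its 7 partners, r was 0.533 for Hmgcs1, 0.476 for Cyp51, 0.432 for Sqle and 0.425 for Idi1, then 0.298 for Insig1 and 0.275 for Fdft1.

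Srebf2 and Fdps had the lowest mean r of the 8. Srebf2 had a mean r of 0.153 with the other 7 genes and Fdps one of -0.144. Their own r was -0.789 (permutation p = 0.00126, adjusted p = 0.0118), but rho was -0.535 (permutation p = 0.0428, adjusted p = 0.120). The r was -0.593 without mice 4_3 and 5_4, the 2 farthest from the median of Srebf2, with an adjusted permutation p of 0.0751. These 2 mice were the lowest in Srebf2 (244 and 227 CPM) and among the 3 highest in Fdps (65.1 and 69.9 CPM). Likewise Srebf2 and Idi1 had an r of 0.693 (permutation p = 0.00474, adjusted p = 0.0265) but a rho of 0.432 (permutation p = 0.105, adjusted p = 0.227), and an r of 0.269 without the same 2 mice. Both relations of Srebf2 were weaker by rank and without these 2 mice. Leaving out the mice farthest on Srebf2 also narrows its range, so part of the fall in r is built in. Leaving out 1 mouse at a time, r ran from -0.834 to -0.701 with Fdps and from 0.518 to 0.785 with Idi1.

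**Figure D3:**
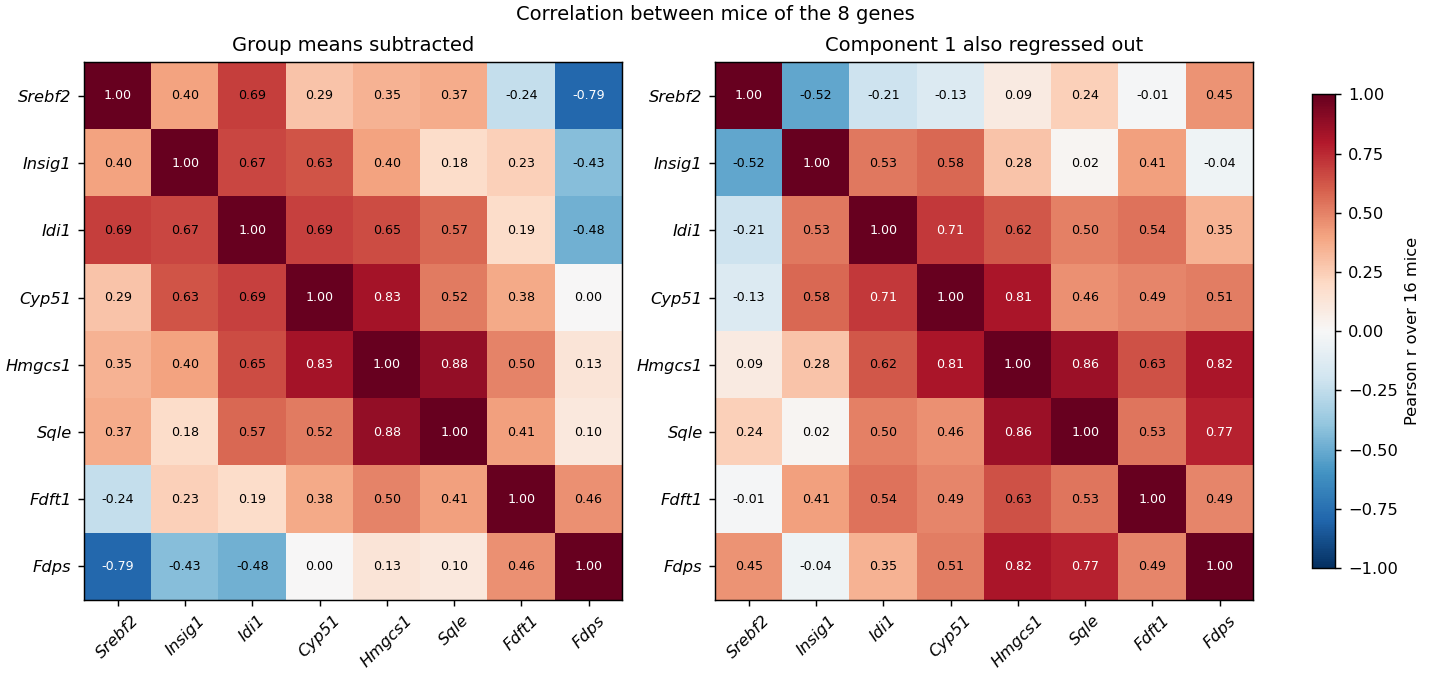
Pearson r over 16 mice (colour, -1 to 1, printed in each cell) between the 8 genes on both axes, with group means subtracted (left) and with principal component 1 of all genes also regressed out (right). Hmgcs1, Sqle and Cyp51 are positive on both sides, Srebf2 and Fdps turn from -0.79 to 0.45, and Fdps with Hmgcs1 goes from 0.13 to 0.82.

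Srebf2 followed the leading axis of variation of the whole data set. Principal component 1 of all genes tested held 34.1% of the variance, and Srebf2 had an r of 0.986 and a rho of 0.962 with it. Fdps had an r of -0.842 and Idi1 one of 0.728. Hmgcs1 (0.339), Sqle (0.341), Cyp51 (0.311) and Fdft1 (-0.239) were below the median size of r over all genes, 0.543, as was Insig1 (0.483). Over the 14949 genes, the r with component 1 and the exon length had a Spearman rho of 0.501, a description across genes, which are not independent. Mice 5_4, 4_3, 8_3 and 3_3 were the lowest on component 1, at -0.586 to -0.191, and the other 12 mice lay between -0.0279 and 0.320. They are 2 saline and 2 adropin mice, and 8_3 is the library with the high choroid plexus markers. The correlations were recalculated without these mice and without this axis.

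Both ways of doing so were chosen after seeing the data. In the 12 other mice, r between Srebf2 and the 6 enzymes lay between -0.08 and 0.25, and with Fdps it was -0.08. Among the 6 enzymes, all 15 pairs were positive in these 12 mice, with a median of 0.69, beside 0.01 over all pairs of genes. They ran from 0.28 for Fdps with Fdft1 to 0.93 for Hmgcs1 with Cyp51. In all 16 mice without this step, 14 of the 15 were positive, from -0.48 to 0.88, with a median of 0.46. With component 1 regressed out of every gene in all 16 mice, the 15 pairs lay between 0.35 and 0.86, with a median of 0.54, and Fdps then had an r of 0.82 with Hmgcs1 and 0.77 with Sqle. Of the 28 pairs of all 8 genes, 11 were then above 0.514, beside 7.69% of all pairs of genes, and the median r was 0.49, beside 0.01 over all pairs. Only 2.87% of the variance of Srebf2 within groups was left after this step, against 29.1% for Fdps, 47.0% for Idi1 and between 76.6% and 94.3% for the other 5 genes, so its remaining r of -0.52 with Insig1 and 0.45 with Fdps describes small deviations.

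**Figure D4:**
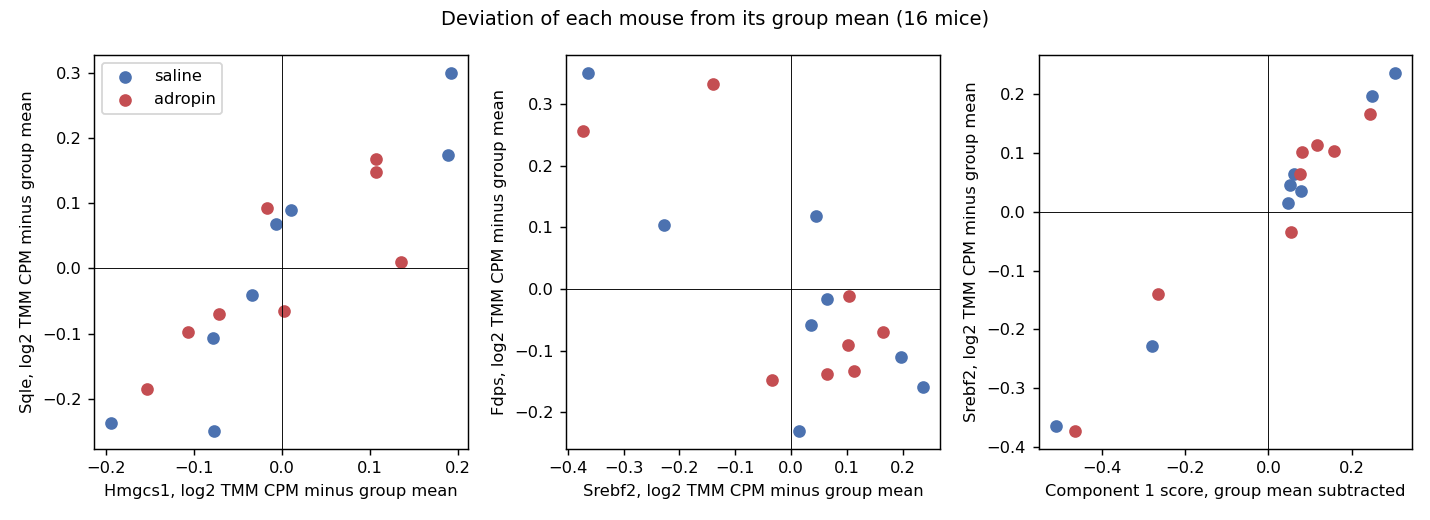
Deviation of each of the 16 mice from its group mean on the log2 scale for Sqle against Hmgcs1 (left) and Fdps against Srebf2 (middle), and for Srebf2 against the component 1 score (right), with saline mice in blue and adropin mice in red. The left cloud is spread along its whole length, while in the middle 4 mice, 2 of each group, lie apart at the left, and Srebf2 tracks component 1 with r = 0.986.

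Cell type marker scores moved with some of the genes. The oligodendrocyte and myelin score had an r of -0.506 with Sqle, -0.489 with Hmgcs1 and 0.410 with Insig1, and between -0.379 and 0.0272 with the other 5, beside a median size of 0.237 over all genes. The oligodendrocyte precursor score had an r of 0.844 with Srebf2 and -0.713 with Fdps, beside a median size of 0.458 over all genes. The neuron score had an r of 0.607 with Cyp51, 0.524 with Insig1, 0.486 with Hmgcs1, 0.466 with Idi1, 0.426 with Srebf2, 0.404 with Fdft1, 0.240 with Sqle and -0.257 with Fdps, beside a median size of 0.291. The astrocyte score ran from -0.568 with Fdps to 0.624 with Srebf2 (median size 0.387) and the choroid plexus score from -0.615 with Srebf2 to 0.502 with Fdps (median size 0.365). The endothelium score ran from -0.487 with Fdps to 0.504 with Insig1 (median size 0.271), the microglia score from -0.0645 with Fdft1 to 0.463 with Hmgcs1 (median size 0.234) and the blood score from -0.431 with Srebf2 to 0.466 with Fdps (median size 0.251). The cerebellum score ran from -0.338 with Sqle to 0.26 with Insig1 (median size 0.246). With the myelin score regressed out of every gene, the median r of the 28 pairs was 0.43, and 21 were positive, against 24 before. Single pairs moved more and in both directions. Hmgcs1 with Insig1 went from 0.399 to 0.753, and Hmgcs1 with Fdps from 0.130 to -0.069. The log2 total count had an r between -0.112 and 0.376 with the 8 genes, beside a median size of 0.229 over all genes. The part of cell composition in the shared variation was not tested beyond these values.

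Genes outside the 8 were ranked by their mean r with the 8, group means subtracted. The 10 highest were 5730455P16Rik (0.537), Zfp874a (0.521), Slc30a5 (0.521), Hif1a (0.520), Tbccd1 (0.512), Pafah1b2 (0.511), Ano10 (0.507), Glod4 (0.503), Rtn3 (0.501) and Zfp60 (0.4998), none of which is on the pathway lists. Of the 16 other synthesis enzymes, 7 were in the top 10% of all genes, with a list median of 0.257 beside 0.0268 over all other genes. The list medians were 0.295 for SREBP processing, 0.236 for sterol uptake, 0.248 for fatty acid synthesis and -0.0258 for sterol export and turnover. Sc5d, which acts late in the pathway, was the highest listed gene at 0.471, and Mbtps2, the site-2 protease that releases SREBP2, was at 0.457.

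With component 1 regressed out, the order of the pathway lists changed. The other synthesis enzymes then had the highest list median, 0.386, with 9 of 16 in the top 10%, beside 0.0244 over all other genes. SREBP processing was at 0.192, sterol uptake at 0.200, fatty acid synthesis at 0.144 and sterol export at -0.0169. Msmo1, the methyl sterol oxidase that acts after Cyp51, came to rank 2 of 14941 genes with a mean r of 0.609, from 0.293 before, and Nsdhl, which acts with it, to rank 19 with 0.550. Mvk, the mevalonate kinase, was at 0.506. Acat2, the thiolase that precedes Hmgcs1, went from 0.0489 to 0.490. The mean r rose in 12 of the 16 enzymes and fell in 4. Those that fell were Ggps1, from 0.390 to 0.295, Hsd17b7, from 0.396 to 0.313, Lss, from 0.362 to 0.275, and Lbr, from 0.167 to -0.0071. These 8 genes, and Sc5d and Mbtps2 above, were named after their values were seen. These are mean correlations, and the lists were chosen with earlier results of the data known.

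**Figure D5:**
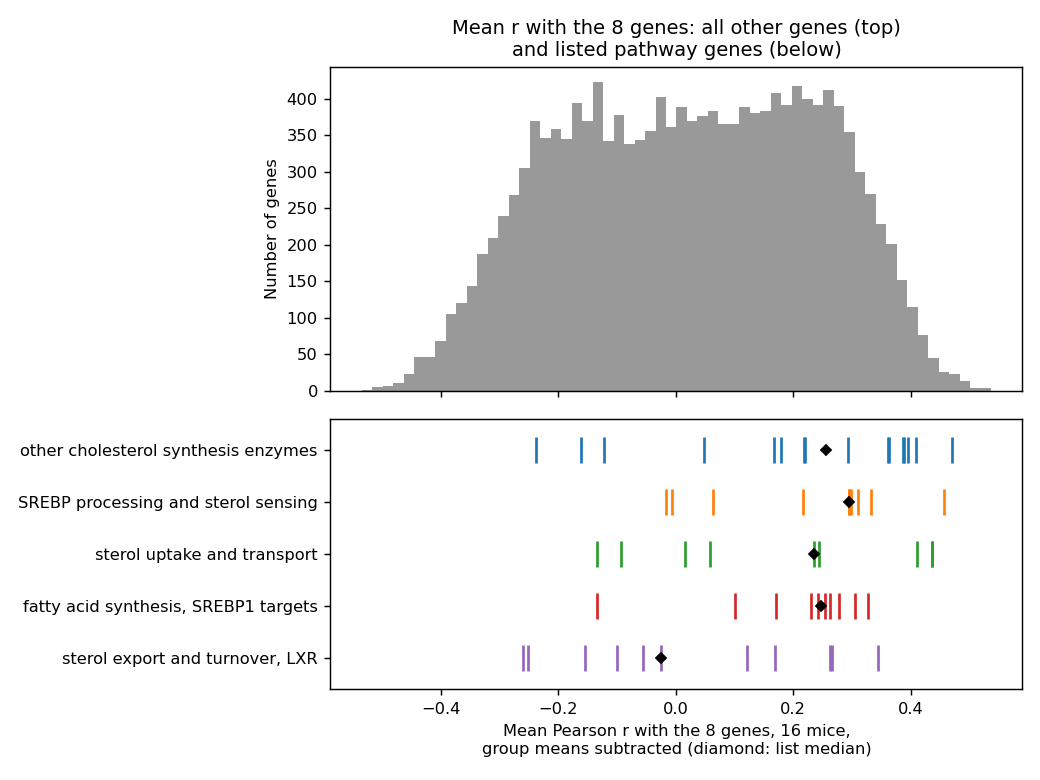
Mean Pearson r with the 8 genes over 16 mice, group means subtracted (x axis): number of all other genes tested per bin (top, y axis) and each listed pathway gene as a tick with the list median as a diamond (below). The medians of 4 lists lie between 0.236 and 0.295, and that of sterol export and turnover is -0.0258.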

How the data were processed

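RNA-seq of mouse brain was compared between 8 adropin and 8 saline mice. The authors aligned paired reads with STAR 2.5.1a1 to the Ensembl release 76 assembly (GRCm38) and deposited raw gene counts made with featureCounts 1.4.6-p52, in which a read had to align uniquely and to 1 gene. Their deposited CPM, the same counts scaled to library totals, were not used. Of 40757 entries, 276 repeats of a gene were dropped. TMM factors were calculated in edgeR 4.0.16 (R 4.3.3), and the study's filter of more than 1 CPM in 7 or more mice was applied. The 355 rRNA genes were left out. The 14949 remaining genes were tested with edgeR (quasi-likelihood), and p-values were adjusted by Benjamini-Hochberg. Two-sided exact permutation tests ran over 12870 divisions of the mice. Log2 CPM used a prior count of 2. Total counts ran from 35026503 to 70314050 per library. The deposited samples are separate mice, and 1 mouse is 1 replicate.

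The 8 genes, the pathway lists and the marker lists were chosen with earlier results of these data known. The genes named are these 8, the 10 others with the highest mean r, and at most 3 of each list by smallest p, except where stated, and the results for some listed genes are not reported here. The edgeR fit was tested on simulated counts first. Alternatives were library size only, DESeq2 size factors, DESeq2 1.42.0, limma-voom (limma 3.58.1), no filter, each label number as a block, other prior counts, and leaving out each mouse. Gene positions and exon lengths came from GENCODE vM21, a later annotation of GRCm38.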

Additional observations from a re-analysis of the deposited data

Results flagged for a closer look

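Idi1 in saline mouse 5_4 was at 5.18 CPM, and the nearest saline mouse was at 7.64 CPM. The gap was 0.535 of the range of the 8 saline mice, above Dixon's 95% critical value for 8 samples. In all, 16 groups were examined (the 8 genes in each treatment group), of which chance would mark about 0.8. The same mouse was the lowest in Srebf2 and on principal component 1. Without it, the log2 fold change of Idi1 was -0.03.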

How the results depend on the processing

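None of the 8 genes passed an unadjusted p of 0.05 under DESeq2, limma-voom, library size only, DESeq2 size factors, no filter, a minimum of 10 counts, or either label number as a block, nor without the 4 mice lowest on component 1. Leaving out 1 mouse at a time gave 0 to 1, the 1 being Hmgcs1 without saline mouse 6_1. Estimates near 0 changed sign: Fdft1 was at -0.013 with library size only, and under a replicate block on the first label number Sqle was at -0.071 and Fdft1 at -0.085, while Hmgcs1 was at 0.020 and Fdps at -0.13. Leaving out 1 mouse moved Srebf2 from 0.064 to 0.16, Hmgcs1 from 0.072 to 0.13, Sqle from 0.0059 to 0.088, Cyp51 from -0.078 to -0.025, Idi1 from -0.035 to 0.091, Fdps from -0.053 to 0.047, Insig1 from -0.066 to 0.020 and Fdft1 from -0.0076 to 0.036. Without the 4 mice, Sqle was at -0.030, Insig1 at 0.0022 and Fdft1 at -0.015. Genes with an unadjusted p below 0.05 numbered 596, against 1902 with no filter, 327 with the first number as a block, and 383 to 1445 leaving out 1 mouse. Of the 5 pathway lists, the count past p was 0 to 1 for synthesis enzymes, 0 to 1 for SREBP processing, 0 to 2 for sterol uptake, 0 to 2 for fatty acid synthesis and 0 for sterol export when 1 mouse was left out.

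Whether the numbers in the labels pair the mice is not settled by these data. Residuals of mice sharing the first number correlated at -0.27 to 0.22 in 5 pairs, and 1 of 4 adropin mice correlated best with its own number. For the second number the range was -0.56 to 0.30 in 17 pairs, and 2 of 7 correlated best with their own. So few pairs cannot show whether a number marks a shared unit. Only first numbers 2, 5 and 7 hold mice of both groups, so the block on the first number rests on those mice. For the other first numbers, treatment and number cannot be told apart.

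The median r of the 28 pairs was 0.39. It was 0.29 in saline mice alone and 0.44 in adropin mice alone, and between 0.32 and 0.43 leaving out 1 mouse. It was 0.56 without the 4 mice and 0.61 with principal components 1 and 2 regressed out, both chosen after seeing the data. Without the 2 mice farthest from the median of Srebf2, its r with Insig1 was -0.15 and with Cyp51 -0.14, where the r had been 0.40 and 0.29. Counts behind each value were 179 or more.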
